A study of Mus musculus with 6 samples.

Results

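Epithelial cells tell their outer (apical) face from their inner (basolateral) face with a small set of proteins. At the apical side PAR3, PAR6 and an atypical protein kinase C (aPKC) form the PAR complex with the GTPase CDC42. SCRIB and LGL are basolateral proteins, and LGL is kept away from the apical side by phosphorylation. The ERM proteins ezrin, radixin and moesin tie the actin cortex to the apical membrane, and in the mouse embryo this apical domain appears at compaction and marks the outer cells that become trophectoderm. The 10 genes described here encode these proteins: Pard3, Pard6b, Prkci, Prkcz and Cdc42 of the PAR complex, Scrib and Llgl1 of the basolateral side, and Ezr, Rdx and Msn of the ERM family. They were taken by name from the 55378 genes of the deposited table.

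The knockdown embryos had been microinjected as zygotes with an siRNA against Eif4a3, whose protein is the RNA helicase of the exon junction complex, and the NC embryos with a negative control siRNA. Both were gathered on day 5 as blastocysts, and each group had 3 Smart-seq2 libraries of polyadenylated RNA, each from a pool of 5 embryos. The labels name no strain, sequence of the siRNA or parent of a pool, so p-values measure only the spread between these pools, which may be technical. Levels below are CPM, counts scaled to a common library size, from sums of merged exon blocks, and differences are log2 fold changes of knockdown over NC with a standard error (SE) from edgeR.

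The block sums ranged from 15607227 to 18697754 per library, and no batch or date stood in the labels. Eif4a3 had 16.03, 36.2 and 56.2 CPM in the knockdown libraries, against 301.9, 255.2 and 202.0 CPM in the NC libraries, 7.01-fold lower (log2 fold change −2.81, SE 0.44, edgeR adjusted p 0.00512). Markers of all 3 blastocyst lineages were present in every library, among them Krt8 of the trophectoderm (1143, 534.7 and 245.4 CPM in the knockdown, 2633, 1789 and 718.8 CPM in NC), Nanog of the epiblast and Gata6 of the primitive endoderm. Between libraries of different groups the correlation across genes was 0.818 to 0.883, against 0.921 to 0.941 among knockdown libraries and 0.938 to 0.965 among NC libraries.

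Of the 10 polarity and ERM genes, 6 fell in the knockdown, none rose and 4 did not pass the test (edgeR quasi-likelihood test, adjusted p threshold 0.05 over 15619 genes). Over all genes tested 5.56% fell and 7.52% rose. The 6 that fell were Msn, Ezr, Llgl1, Pard6b, Prkci and Prkcz, and in each of them the 3 knockdown libraries lay under the 3 NC libraries. Such separation was seen on the low side for 16.4% of all genes tested and on the high side for 20.1%. Rdx, Cdc42, Pard3 and Scrib had overlapping groups. The median log2 fold change was −1.32 over the 10 genes and 0.03 over all genes tested. All 10 genes passed the filter on low counts.

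**Figure D1:**
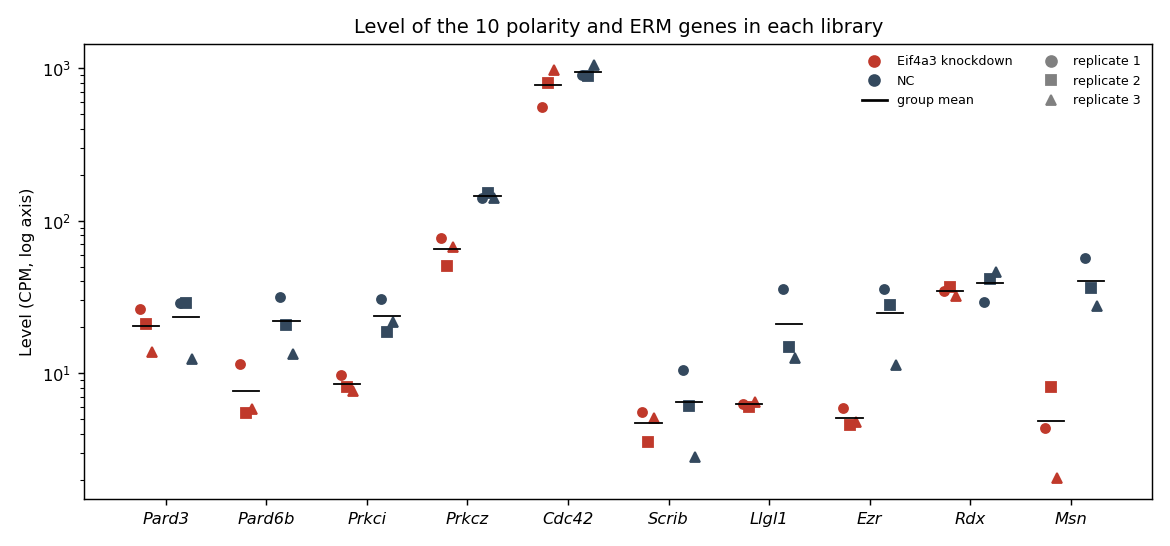
Level of each gene in every library in CPM on a log axis, with knockdown libraries in red at the left and NC libraries in dark blue at the right of each gene, black lines at the group means and symbols for the replicate number. Groups are separate for Pard6b, Prkci, Prkcz, Llgl1, Ezr and Msn, and overlap for Pard3, Cdc42, Scrib and Rdx.

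With 1 library left out, the number of these genes that fell ranged from 2 to 5. It was 2 without knockdown replicate 2, without knockdown replicate 3 or without NC replicate 1, and 3 without NC replicate 2. Msn and Ezr were the 2 genes that fell in all of these fits. NC replicate 1 was the highest NC library for 6 of the 10 genes.

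**Figure D2:**
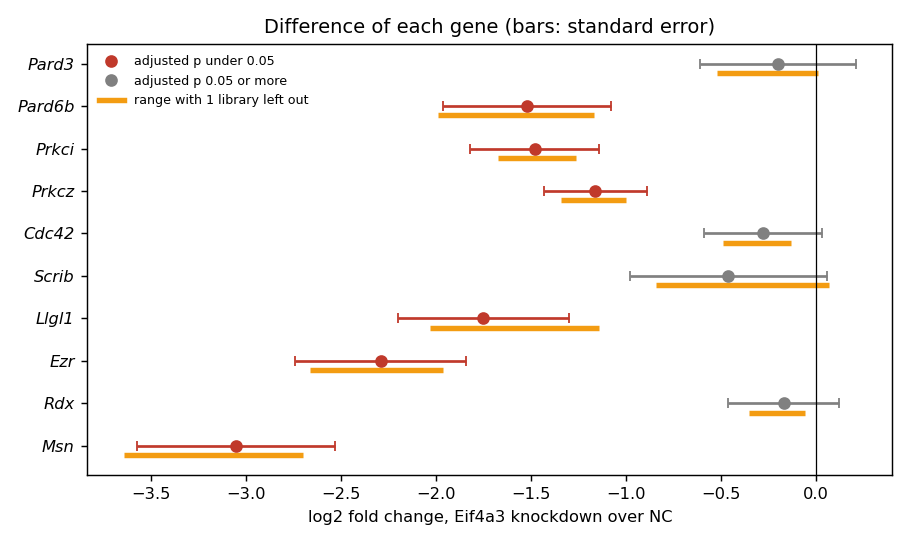
Log2 fold change of each gene, knockdown over NC, with its standard error as the thin bar and the range over the 6 fits with 1 library left out as the thick bar. Red points passed the adjusted p threshold of 0.05 and grey points did not. Msn and Ezr lie farthest from 0, and the ranges of Pard3 and Scrib reach past it.

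The scaffold gene Pard3, whose protein recruits PAR6 and aPKC to the cortex, did not pass the test. It had 26.4, 20.96 and 13.8 CPM in the knockdown libraries, against 28.7, 29.02 and 12.4 CPM in the NC libraries. The third library was the lowest in each group, and the groups overlapped. Its log2 fold change was −0.20 (SE 0.41, edgeR adjusted p 0.784), and without knockdown replicate 3 it was 0.01. Pard3 spans chromosome 8 from 127063893 to 127612286 on the plus strand (GRCm38) with 33 exon blocks.

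Pard6b, the gene of an isoform of PAR6, the protein that binds active CDC42 and holds aPKC, fell. Its level was 11.5, 5.51 and 5.84 CPM in the knockdown libraries, against 31.5, 20.8 and 13.5 CPM in the NC libraries. The closest pair was knockdown replicate 1 and NC replicate 3, and the groups stayed apart. Pard6b was 2.88-fold lower (log2 fold change −1.52, SE 0.44, edgeR adjusted p 0.0479, exact permutation p 0.1 with n = 3, the smallest possible p). This call is close to the threshold: the edgeR adjusted p was 0.138 without knockdown replicate 2, 0.128 without knockdown replicate 3, 0.164 without NC replicate 1 and 0.112 without NC replicate 2. Pard6b lies on chromosome 2 (168081004 to 168101203, plus strand), and its last of 3 blocks held 82, 83.5 and 84.5% of its counts in the knockdown and 87.1, 87.2 and 88.3% in NC.

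The other PAR6 genes did not pass the test. Pard6a had 16.8, 13.1 and 11.5 CPM in the knockdown, against 10.2, 9.23 and 6.43 CPM in NC (log2 fold change 0.68, edgeR adjusted p 0.233), and Pard6g had a log2 fold change of 0.85 (edgeR adjusted p 0.208). Levels were therefore also set against each other within a library, as CPM per kb of merged exon. Pard6b made up 21.3, 14.4 and 15.3% of the summed level of Pard6a, Pard6b and Pard6g in the knockdown, against 55.4, 47.3 and 43.8% in NC. Pard6a made up 67.0, 73.6 and 64.9% in the knockdown, against 38.5, 45.2 and 44.9% in NC. Pard6b was thus the leading PAR6 RNA in NC replicates 1 and 2 and close to Pard6a in NC replicate 3 (44.9% Pard6a, 43.8% Pard6b), and Pard6a led in every knockdown library. The mean share of Pard6b differed by −31.8 percentage points and that of Pard6a by 25.6 points (exact permutation p 0.1 each, 0.167 adjusted over 10 shares, n = 3). Summing every exon line made the difference for Pard6b −14.5 points, with shares of 6.4, 3.9 and 4.7% in the knockdown and 23.6, 18.2 and 16.7% in NC, still apart but no longer leading in any library.

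Of the aPKC genes, Prkci encodes the iota form and Prkcz the zeta form of the kinase that phosphorylates basolateral proteins. Prkci had 9.70, 8.06 and 7.58 CPM in the knockdown libraries, against 30.6, 18.6 and 21.5 CPM in the NC libraries. The knockdown libraries were close to each other and every one was under every NC library. Prkci was 2.79-fold lower (log2 fold change −1.48, SE 0.34, edgeR adjusted p 0.0208). The edgeR adjusted p was 0.065 without knockdown replicate 2, 0.0611 without knockdown replicate 3 and 0.0772 without NC replicate 1. The gene lies on chromosome 3 (30995747 to 31052959, plus strand).

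Prkcz had 77.5, 50.4 and 67.3 CPM in the knockdown libraries, against 141.8, 151.2 and 141.9 CPM in the NC libraries. The NC libraries were nearly equal, at 145.0 ± 5.39 CPM (SD, n = 3), and the knockdown libraries averaged 65.05 ± 13.7 CPM. Prkcz was 2.23-fold lower (log2 fold change −1.16, SE 0.27, edgeR adjusted p 0.023). Leaving out knockdown replicate 2 gave an edgeR adjusted p of 0.0795, knockdown replicate 3 0.0575, NC replicate 1 0.0616, NC replicate 2 0.0822 and NC replicate 3 0.0606. With the most counted block alone the log2 fold change was −0.66 (edgeR adjusted p 0.175) and Prkcz was not called. Within a library, Prkcz made up 87.5, 84.6 and 88.6% of the summed aPKC level per kb in the knockdown and 80.3, 87.7 and 85.3% in NC, and these shares overlapped (difference 2.5 points, exact permutation p 0.5, 0.5 adjusted over 10 shares, n = 3). This level sums all Prkcz blocks. The 13 blocks at the 3′ end, described below, have 4289 of its 6318 merged bases. They held 41.9, 14.5 and 19.5% of the Prkcz count in the knockdown and 64.5, 40.5 and 34.3% in NC. The share was not computed for that stretch alone.

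The 21 exon blocks of Prkcz (chromosome 4, 155260129 to 155361361, minus strand) did not carry its counts evenly. In the GENCODE vM21 annotation the full-length transcript Prkcz-201 uses the 4 blocks at the 5′ end and the 13 at the 3′ end, and skips 4 blocks between them that belong to transcripts with internal starts. A short transcript, Prkcz-203, ends in an extension of the third exon and has 291 coding bases, against 1779 in Prkcz-201. The counts were already lower in block 4 (51 bases) than in block 2 (122 bases) in every library. Knockdown replicate 2 had 5.33 against 14.5 CPM there, and NC replicate 3 had 12.6 against 31.1 CPM. A further drop in every library lay between 155354654 and 155301171, to 0.666 and 2.43 CPM in block 9 of these 2 libraries. No link of either drop to Prkcz-203 was tested. The point where these transcripts part is shown with the bases after the last shared base in capitals (GENCODE vM21 transcripts, GRCm38, minus strand, Prkcz-203 at chr4:155356419-155356456, Prkcz-201 spliced over chr4:155354697-155356456).
Prkcz-203: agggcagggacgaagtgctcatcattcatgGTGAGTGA
Prkcz-201: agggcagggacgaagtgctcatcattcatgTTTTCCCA

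Stretches of Prkcz were delimited after their values were seen, so what follows is a description with no test. The 4 blocks at the 5′ end (155354654 to 155361361) summed to 44.99, 43.07 and 54.17 CPM in the knockdown libraries, against 50.23, 89.78 and 93.12 CPM in the NC libraries. NC replicate 1 lay within the knockdown values here. The 13 blocks at the 3′ end (155260129 to 155301171), which hold the coding sequence of the kinase domain, summed to 32.5, 7.33 and 13.1 CPM in the knockdown libraries, against 91.5, 61.3 and 48.6 CPM in the NC libraries. These groups did not overlap, and the log2 ratio of the group means was −1.93 at the 3′ end, against −0.71 at the 5′ end. The 3′ blocks held 41.9, 14.5 and 19.5% of the Prkcz count in the knockdown and 64.5, 40.5 and 34.3% in NC, with knockdown replicate 1 above NC replicate 3.

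The 4 blocks of internal starts were empty in the knockdown (0, 0 and 0 counts) and had 2, 2 and 3 counts in the NC libraries. The extension that ends Prkcz-203 alone was touched by 0, 0 and 0 pairs in the knockdown and by 1, 1 and 0 pairs in NC, where a pair that also reaches the shared part is not included. The fourth exon, absent from Prkcz-203, had 7.50, 5.33 and 7.22 CPM in the knockdown and 7.81, 11.8 and 12.6 CPM in NC. A test of exon usage over all genes (edgeR diffSpliceDGE) gave Prkcz an unadjusted p of 0.0476 and an adjusted p of 0.553. By this test 0 of the 10 genes were called, where 2.95% of 9494 genes were called. In the fit without knockdown replicate 1 the adjusted p of Prkcz was 4.28e-06. The median gene with at least 5 blocks had 17.9, 23.6 and 20% of its count in the last block in the knockdown libraries and 20.5, 23.6 and 22.3% in the NC libraries. The part of 3′ coverage in the Prkcz pattern was not tested.

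**Figure D3:**
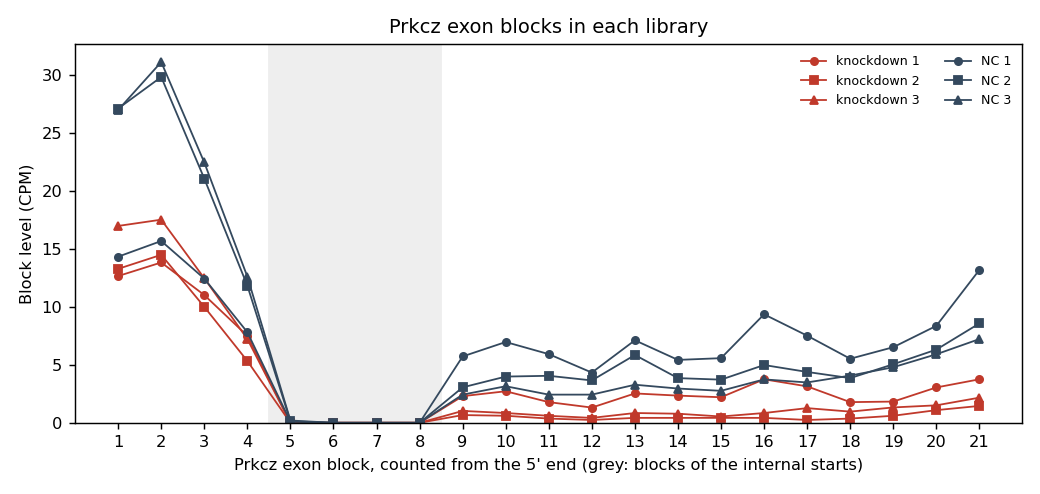
CPM of each Prkcz exon block, numbered from the 5′ end, with 1 line per library, knockdown in red and NC in dark blue. Blocks 1 to 3 are high in every library, and in NC replicate 1 block 21 (13.2 CPM) is above block 3 (12.4 CPM). The grey blocks of the internal starts are at or near 0, and from block 9 on knockdown replicates 2 and 3 are the lowest lines.

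Cdc42, the small GTPase that activates the PAR6 and aPKC pair, was the most abundant of the 10 genes and did not pass the test. It had 559, 806 and 980 CPM in the knockdown libraries, against 904, 892 and 1055 CPM in the NC libraries. Knockdown replicate 1 was the lowest library, and knockdown replicate 3 lay within the NC values. The log2 fold change was −0.28 (SE 0.31, edgeR adjusted p 0.576).

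The gene (chromosome 4, 137319696 to 137357720, minus strand) has 2 alternative last exons that give the protein different C-terminal prenylation boxes, one general and one known from brain. The end of the coding sequence is shown for both because the box sets which lipid anchors the protein, with the codons of the box in capitals (GENCODE vM21 transcripts, GRCm38, minus strand, Cdc42-202 at chr4:137321103-137321150, Cdc42-201 at chr4:137322530-137322577).
Cdc42-202: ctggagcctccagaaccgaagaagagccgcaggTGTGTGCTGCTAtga
Cdc42-201: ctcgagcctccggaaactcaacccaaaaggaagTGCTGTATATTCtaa

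Nearly all counts of the last exons lay in that of Cdc42-202. It had 3476, 3368 and 3808 counts in the knockdown libraries, against 6203, 4578 and 5644 counts in the NC libraries. The exon of Cdc42-201 had 18, 34 and 31 counts in the knockdown, against 83, 29 and 52 counts in NC. It made up 0.515, 0.999 and 0.808% of both in the knockdown and 1.32, 0.63 and 0.913% in NC, and these ranges overlapped. The Cdc42-202 exon was at 162.9, 204.0 and 229.2 CPM in the knockdown, under 308.5, 304.0 and 370.4 CPM in NC, while the whole gene overlapped. This exon is the most counted block of Cdc42, and the test of that block alone did not pass (log2 fold change −0.66, edgeR adjusted p 0.166). The exon usage test gave Cdc42 an edgeR adjusted p of 1.0.

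Of the ERM genes, Msn (moesin) and Ezr (ezrin) fell, and Rdx (radixin) did not pass the test. Their proteins share a membrane-binding FERM domain and a C-terminal actin-binding tail, and phosphorylation of a threonine in that tail opens the folded protein. The coding sequences around that threonine are printed because they show how alike these genes are where the protein is regulated and where their bases still differ, with the threonine codon in capitals (GENCODE vM21 transcripts, GRCm38, Ezr at chr17:6739342-6739386 on the minus strand, Rdx at chr9:52086396-52086440 and Msn at chrX:96166551-96166595 on the plus strand).
Ezr: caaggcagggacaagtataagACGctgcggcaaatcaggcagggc
Rdx: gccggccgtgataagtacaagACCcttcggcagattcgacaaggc
Msn: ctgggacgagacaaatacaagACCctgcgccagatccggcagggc

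Over the whole coding sequence Ezr and Rdx were 69.9% identical, Ezr and Msn 73.2% and Rdx and Msn 71.5%. The longest run of identical bases between any of these pairs was 32 bases, shorter than a read of 150 bases.

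Moesin RNA showed the largest fall of the 10 genes. Msn had 4.36, 8.12 and 2.05 CPM in the knockdown libraries, against 56.6, 36.2 and 27.5 CPM in the NC libraries. The highest knockdown library was under the lowest NC library by more than the range of the knockdown. Msn was 8.28-fold lower (4.84 ± 3.06 CPM in the knockdown and 40.1 ± 14.9 CPM in NC, SD, n = 3; log2 fold change −3.05, SE 0.52, edgeR adjusted p 0.00662). It kept its call in all 14 alternative fits, with log2 fold changes of −3.64 to −2.70.

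Msn lies on chromosome X (96096042 to 96168552, plus strand), so the RNA that marks an inactive X chromosome is given beside it. Xist, which coats that chromosome in female cells, had 17.2, 41.3 and 168.9 CPM in the knockdown libraries, against 151.4, 104.1 and 128.6 CPM in the NC libraries. Knockdown replicates 1 and 2 had less Xist than any NC library. Knockdown replicate 3 had the highest Xist and the lowest Msn of the 6 libraries. The Y-linked gene Eif2s3y had 95.4, 126.3 and 32.3 CPM in the knockdown libraries, against 17.5, 61.8 and 58.1 CPM in the NC libraries. Uty, also Y-linked, had 11.95, 11.6 and 3.73 CPM in the knockdown, against 0.448, 3.65 and 3.15 CPM in NC. Without knockdown replicate 3 the log2 fold change of Msn was −2.70 (edgeR adjusted p 0.0174). None of 5 sex-linked genes was called. The part of sex composition in the fall of Msn was not tested.

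Ezrin, the ERM protein of microvilli on the outer cells, had 5.90, 4.54 and 4.82 CPM of Ezr RNA in the knockdown libraries, against 35.4, 28.2 and 11.4 CPM in the NC libraries. NC replicate 3 was the lowest NC library, and the groups did not overlap. Ezr was 4.90-fold lower (5.09 ± 0.72 CPM in the knockdown and 24.97 ± 12.3 CPM in NC, SD, n = 3; log2 fold change −2.29, SE 0.45, edgeR adjusted p 0.0115).

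The last block of Ezr (chromosome 17, gene at 6738041 to 6782784, minus strand) overlaps an exon of Sytl3, a neighbouring gene, and that block is 43.4% of its merged exon length. Since Smart-seq2 does not mark strand, reads of these genes cannot be told apart there. Sytl3 had 4.92, 7.09 and 6.32 CPM in the knockdown, against 1.39, 0.73 and 1.77 CPM in NC (log2 fold change 2.23, edgeR adjusted p 0.0196). The shared block held 31.0, 84.0 and 81.2% of the Ezr count in the knockdown and 34.3, 55.0 and 83.2% in NC. The other blocks summed to 4.08, 0.727 and 0.903 CPM in the knockdown, against 23.3, 12.7 and 1.90 CPM in NC, so knockdown replicate 1 lay above NC replicate 3 there. Without the overlapping block Ezr had a log2 fold change of −2.71 with an edgeR adjusted p of 0.0672 and was no longer called.

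Rdx, the third ERM gene, had 34.6, 36.95 and 32.0 CPM in the knockdown libraries, against 29.4, 41.5 and 45.7 CPM in the NC libraries. By the sum of all blocks, all 3 knockdown libraries lay within the NC values. The log2 fold change was −0.17 (SE 0.29, edgeR adjusted p 0.733), and with the most counted block alone it was −0.71 (edgeR adjusted p 0.152). That block (52086315 to 52088735) holds the threonine codon shown above. It was at 7.45, 9.33 and 6.14 CPM in the knockdown, under 9.997, 13.9 and 15.5 CPM in NC, while the whole gene overlapped. The Rdx counts were uneven in every library. Blocks 4 to 10 from the 5′ end had 1.29 to 5.38 CPM, and blocks 11 to 15, before the most counted block 16, had 0 to 0.963 CPM. Whether the blocks on both sides of this low stretch come from full-length RNA was not tested. Rdx lies on chromosome 9 (52047173 to 52100463, plus strand).

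Within a library and by the sums of all blocks, the Rdx part of the ERM RNA was above all 3 NC values in each knockdown library. Rdx made up 74.6, 74.6 and 79.1% of the summed ERM level per kb in the knockdown, against 24, 38.1 and 55.4% in NC. This share counts the Rdx blocks on both sides of the low stretch and need not be that of full-length RNA. Msn made up 7.0, 12.3 and 3.8% in the knockdown, against 34.5, 24.8 and 24.9% in NC. Ezr made up 18.3, 13.2 and 17.1% in the knockdown, against 41.5, 37.1 and 19.8% in NC. By these block sums the leading ERM gene in NC differed between pools: Ezr led in NC replicate 1, Ezr and Rdx were nearly equal in NC replicate 2, and Rdx led in NC replicate 3. With the most counted block alone the order was another, with Msn ahead in NC replicates 1 (49.2%) and 3 (35.6%) and Ezr in NC replicate 2 (44.2%). For Ezr that block is the one shared with Sytl3, so its value there may hold reads of Sytl3.

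The difference in mean share was 37.0 points for Rdx, −20.4 points for Msn and −16.6 points for Ezr (exact permutation p 0.1 each, 0.167 adjusted over 10 shares, n = 3). With the most counted block of each gene alone the Rdx share was 58.8, 43.8 and 41.7% in the knockdown and 16.6, 23.5 and 31.7% in NC, and with blocks that overlap no other gene it was 71.3, 80.3 and 88.5% in the knockdown and 21.4, 39.5 and 61.7% in NC. The Msn shares also kept apart in both. The Ezr share overlapped in both. By the most counted block, the one shared with Sytl3, it was 24.5, 30.4 and 45% in the knockdown and 34.2, 44.2 and 32.8% in NC, a difference of −3.8 points.

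**Figure D4:**
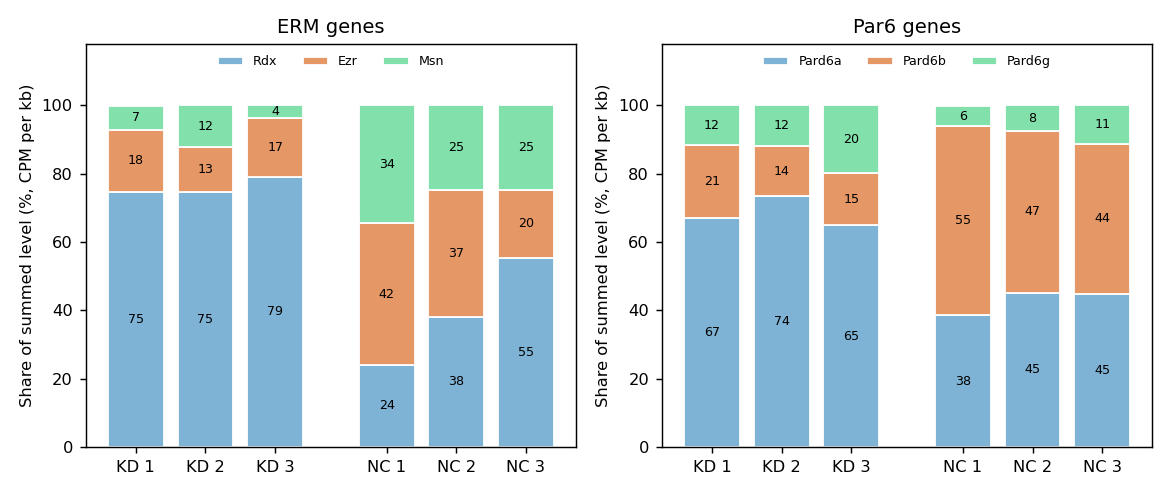
Share of each gene in the summed level per kb of its family, in percent, with the 3 knockdown libraries (KD) at the left and the 3 NC libraries at the right of each panel. Rdx takes 74.6 to 79.1% of the ERM level in the knockdown and 24 to 55.4% in NC, and Pard6b takes 14.4 to 21.3% of the PAR6 level in the knockdown and 43.8 to 55.4% in NC.

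Of the basolateral genes, Llgl1, one of the mammalian lethal giant larvae genes, fell and Scrib did not pass the test. Llgl1 had 6.28, 6.0 and 6.44 CPM in the knockdown libraries, against 35.8, 14.7 and 12.5 CPM in the NC libraries. The groups did not overlap, and NC replicate 1 was far above the other NC libraries. Llgl1 was 3.37-fold lower (log2 fold change −1.75, SE 0.45, edgeR adjusted p 0.0303).

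Several settings end the call of Llgl1. Without NC replicate 1 its log2 fold change was −1.14 with an edgeR adjusted p of 0.109, and the edgeR adjusted p was 0.0504 without knockdown replicate 1, 0.0904 without knockdown replicate 2, 0.0736 without knockdown replicate 3 and 0.0542 without NC replicate 2. The last block of Llgl1 (chromosome 11, gene at 60699723 to 60714186, plus strand) overlaps Flii, which had 21.7, 20.2 and 22.9 CPM in the knockdown, against 97.7, 57.0 and 40.4 CPM in NC. That block held 37.3, 91.9 and 58.9% of the Llgl1 count in the knockdown and 31.3, 61.7 and 56.0% in NC. The other blocks summed to 3.94, 0.485 and 2.65 CPM in the knockdown, against 24.6, 5.64 and 5.51 CPM in NC, so the knockdown libraries were spread there and still under NC. Without the overlapping block Llgl1 had a log2 fold change of −2.32 and an edgeR adjusted p of 0.0749.

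Llgl2, the paralog of Llgl1, had 7.40, 7.21 and 7.40 CPM in the knockdown, against 34.2, 17.3 and 10.4 CPM in NC. Its log2 fold change of −1.49 missed the threshold (edgeR adjusted p 0.0526). Llgl1 made up 45.8, 45.3 and 46.4% of the level of both per kb in the knockdown and 51.0, 46.0 and 54.5% in NC (difference −4.6 points, exact permutation p 0.2, 0.25 adjusted over 10 shares, n = 3). The ranges overlapped. The difference was −6.9 to −2.7 points with 1 library left out, 0.1 points with the most counted block alone and −2.3 points with all exon lines. The most counted block of Llgl1 is the one that overlaps Flii. With blocks that overlap no other gene it was −12.9 points, from shares of 41.7, 8.3 and 32.5% in the knockdown and 49.2, 30.6 and 41.6% in NC, which also overlapped.

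Scrib, the scaffold that gives the basolateral module its name, was low in all libraries. It had 5.58, 3.51 and 5.06 CPM in the knockdown libraries, against 10.5, 6.11 and 2.82 CPM in the NC libraries. The NC libraries spread around the knockdown libraries, with NC replicate 3 the lowest of all 6. The log2 fold change was −0.46 (SE 0.52, edgeR adjusted p 0.590), and it was 0.07 without NC replicate 1 and 0.13 with the most counted block alone. Scrib lies on chromosome 15 (76047158 to 76069784, minus strand).

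Set in order by level per kb of merged exon, Cdc42 stood far above the rest, at 263.5 ± 71.3 CPM per kb in the knockdown and 320.5 ± 30.5 CPM per kb in NC (SD, n = 3). In NC it was followed by Prkcz at 22.95 ± 0.852 CPM per kb, a level over all blocks that its 5′ blocks carried in large part. Rdx (8.22 ± 1.79), Ezr (7.59 ± 3.75), Pard6b (6.45 ± 2.68), Msn (6.34 ± 2.36), Llgl1 (4.32 ± 2.64) and Prkci (4.25 ± 1.13 CPM per kb) came next in NC, and neighbours among them differed by less than their SD. Pard3 (1.57 ± 0.639) and Scrib (1.01 ± 0.601 CPM per kb) were lowest in NC. This order depends on the merged length, which takes in blocks with few or no counts. Pard3 has 14849 merged bases and Prkci 5551, while their NC means were 23.4 and 23.6 CPM.

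In the knockdown Prkcz (10.3 ± 2.16) and Rdx (7.29 ± 0.521 CPM per kb) followed Cdc42, again by the sum of all blocks. Pard6b (2.24 ± 0.987), Ezr (1.55 ± 0.219), Prkci (1.52 ± 0.2), Pard3 (1.37 ± 0.426), Llgl1 (1.28 ± 0.0462), Msn (0.765 ± 0.484) and Scrib (0.731 ± 0.166 CPM per kb) made up the low end in the knockdown, and there neighbours differed by less than their larger SD except Llgl1 and Msn. Msn was thus level with Scrib there, while in NC it stood with Ezr and Pard6b. Fewer cells of a type and less RNA per cell cannot be told apart in such pools.

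The partners of these proteins, in 5 lists of pathway genes, were fitted in the same test, and none of them rose. Over all genes tested 5.56% fell and 7.52% rose. The counts per list below stand beside that share and were not tested against it. Among partners of PAR and aPKC, 1 of 10 tested genes fell, with a median log2 fold change of −0.56. That gene was Wwc1, which encodes the aPKC-binding Hippo protein KIBRA (1.77 ± 0.506 CPM in the knockdown and 6.61 ± 1.88 CPM in NC, SD, n = 3; −1.90, edgeR adjusted p 0.0281). Rac1, which also binds PAR6, had 257.0, 308.9 and 351.5 CPM in the knockdown, against 225.4, 200.2 and 181.0 CPM in NC, and did not pass (0.60, edgeR adjusted p 0.166). The exchange factor gene Ect2 had −0.76 (edgeR adjusted p 0.146).

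Of the Crumbs complex and its angiomotin partners, which form the other apical module, 1 of 9 tested genes fell, with a median of −0.23. Amotl2, an angiomotin that ties junctions to the Hippo pathway, had 0.281, 1.51 and 0.602 CPM in the knockdown, against 9.25, 5.31 and 3.54 CPM in NC (−2.93, edgeR adjusted p 0.0221). Its paralog Amotl1 had 1.60 (edgeR adjusted p 0.174) and the scaffold gene Lin7c 0.53 (edgeR adjusted p 0.279).

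In the list of the Scribble module with the PAR1 and LKB1 kinases, 2 of 17 tested genes fell, with a median of −0.48. Dlg3, a partner scaffold of SCRIB, had 0.89, 3.70 and 1.87 CPM in the knockdown, against 19.5, 12.1 and 12.3 CPM in NC (−2.77, edgeR adjusted p 0.0116). Mark2, a PAR1 kinase of the basolateral side, had 5.30, 3.70 and 2.35 CPM in the knockdown, against 20.5, 13.3 and 12.9 CPM in NC (−2.04, edgeR adjusted p 0.0145). Both were clear of overlap, while Scrib itself was not.

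Among ERM partners and microvillus genes 2 of 24 tested genes fell, with a median of −0.65. Pdzk1, a PDZ scaffold of the apical membrane, had 1.36, 2.30 and 0.903 CPM in the knockdown, against 48.3, 14.5 and 6.10 CPM in NC (−3.92, edgeR adjusted p 0.0101). The kinase gene Rock2 fell by 1.32 on the log2 scale (edgeR adjusted p 0.0479). Slc9a3r1, whose protein NHERF1 binds ezrin, had 27.3, 28.6 and 16.0 CPM in the knockdown, against 145.2, 73.4 and 23.3 CPM in NC, and with overlapping groups it missed the threshold (−1.75, edgeR adjusted p 0.0639).

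Of the regulators and effectors of CDC42, 5 of 34 tested genes fell, with a median of −0.48. They were Dnmbp, a CDC42 exchange factor known as Tuba (−2.08, edgeR adjusted p 0.0236), the effector kinase Pak4 (−2.35, adjusted p 0.0248), the effector Cdc42ep2 (−1.46, adjusted p 0.0305), Arhgap5 (−1.22, adjusted p 0.0317) and Iqgap1 (−1.13, adjusted p 0.0397). Cdc42ep2 had 3.28, 3.63 and 3.73 CPM in the knockdown, against 9.75, 9.23 and 10.4 CPM in NC. Its libraries were close together in each group, while Cdc42 itself overlapped.

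**Figure D5:**
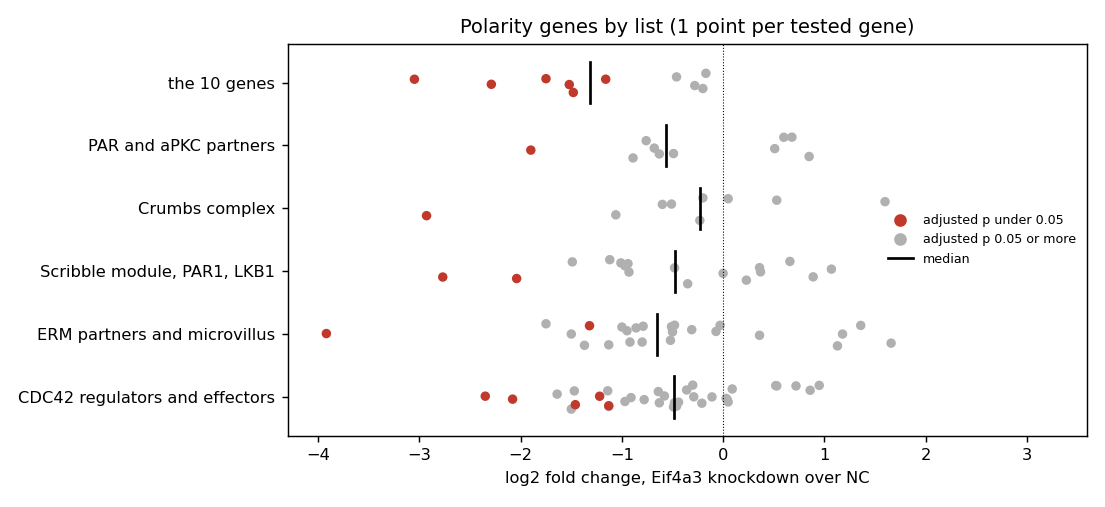
Log2 fold change of each tested gene, knockdown over NC, for the 10 genes and the 5 lists of partners, with red points past the adjusted p threshold of 0.05, grey points not past it and a black line at each median. The medians are −1.32 for the 10 genes and −0.23 to −0.65 for the lists, and all red points are below 0.

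Part of the markers of the blastocyst lineages fell as well, while Krt8 (edgeR adjusted p 0.134), Nanog (0.155) and Gata6 (0.794) did not pass the test. Of other trophectoderm markers, Krt18 (−1.97, edgeR adjusted p 0.0332) and Gata3 (−2.51, adjusted p 0.0216) fell, and Cdx2 missed the threshold (−1.82, adjusted p 0.0676). Of the trophectoderm markers 12 of 24 tested fell and none rose, where 5.56% of all genes tested fell. The summed level of that list was 1184 to 3382 CPM in the knockdown, against 4529 to 8992 CPM in NC. Lrp2 (−2.95, edgeR adjusted p 0.00188), Eomes (−2.77, adjusted p 0.00628) and the adhesion gene Cdh1 (−1.61, adjusted p 0.01) had its smallest p. Of epiblast and inner cell mass markers 7 of 20 fell and 1 rose (2991 to 7179 CPM in the knockdown, 6731 to 14900 CPM in NC). Tdgf1 (−5.18, edgeR adjusted p 0.000752), Upp1 (−2.75, adjusted p 0.000954) and Utf1 (−2.48, adjusted p 0.00362) had the smallest p of that list. Of primitive endoderm markers 4 of 13 fell (342.9 to 375 CPM in the knockdown, 728.5 to 880.6 CPM in NC), with Foxa2 at 0. Sparc (−3.97, edgeR adjusted p 0.000752), Pdgfra (−4.50, adjusted p 0.00724) and Lamb1 (−2.19, adjusted p 0.0105) had the smallest p there. The part of lineage composition in the fall of Msn, Ezr, Llgl1, Pard6b, Prkci and Prkcz was not tested.

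Markers of cells that could be carried along were low. Cumulus markers summed to 17.0 to 29.4 CPM in the knockdown and 4.18 to 15.9 CPM in NC, with none of 2 tested genes called, and Has2, Ptx3, Tnfaip6, Fshr, Amh, Cyp19a1 and Hsd3b1 listed at 0 in every library. Amhr2 made up most of this sum. It had 28.8, 16.1 and 22.9 CPM in the knockdown, against 3.58, 15.4 and 11.6 CPM in NC (log2 fold change 1.15, edgeR adjusted p 0.152). Sperm markers summed to 5.95 to 13.7 CPM in the knockdown and 2.98 to 5.25 CPM in NC, with Smcp at 0, and fibroblast markers to 1.81 to 10.8 CPM in the knockdown and 1.99 to 13.1 CPM in NC, with Fap at 0 and no gene called in either list. Blood markers summed to 4.45 to 13.2 CPM in the knockdown and 7.88 to 59.3 CPM in NC, and the globin genes Hbb-bs (−3.85, edgeR adjusted p 0.0132) and Hbb-bt (−3.42, adjusted p 0.0239) fell. No blood marker was at 0 in every library, blood cells also express Msn, and their part in its fall was not tested.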

How the data were processed

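Smart-seq2 libraries of 3 pools per group were compared. Per the submitters' processing notes, reads went through FastQC 0.11.9, fastp 0.20.1, STAR 2.7.6a and featureCounts 2.0.1 on GRCm38, with R 4.1.1 and DESeq2 1.34.0. What the authors deposited, per the file headers, were raw read-pair counts, 1 value per exon line (GENCODE vM29 on GRCm38 coordinates), counting a pair in every line it overlaps, with strand setting 2 and without an option for multiply aligned pairs. Pairs of the other orientation are therefore missing, and overlapping genes share reads.

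The planned tests assumed gene counts. The 842173 lines (449500 distinct exons, 55378 genes, 55102 with a symbol) gave 291424 merged blocks, each counted by its highest line, and the blocks of a gene were added up. A pair across a junction counts in several blocks. Sums were 15607227 to 18697754 per library. Scrib, the lowest of the genes by mean CPM in both groups, had 58 to 119 counts in the knockdown and 43 to 212 in NC. The smallest single count was that of Msn in knockdown replicate 3. Msn had 93, 134 and 34 counts in the knockdown, against 1138, 545 and 419 in NC. CPM used the TMM-scaled library size.

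Genes were tested with edgeR 4.0.16 in R 4.3.3 (filterByExpr, glmQLFit, glmQLFTest, two-sided, group alone, Benjamini-Hochberg over 15619 genes), exon usage with diffSpliceDGE on the blocks, and within-library shares with two-sided exact permutation tests. Fits were tested on simulated data. The 10 genes and all lists were chosen with earlier results of these data known. Genes named are the 10, their PAR6 and LGL paralogs, Eif4a3, and up to 3 tested genes of smallest unadjusted p per list. Sytl3, Flii, Xist, Krt8, Krt18, Gata3, Cdx2, Nanog, Gata6, Arhgap5 and Iqgap1 were added after their values were seen. Alternatives were DESeq2 1.42.0 (size factors, Wald test), filters, other exon sums, libraries left out and a replicate block. Transcript names and sequences came from GENCODE vM21.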

Additional observations from a re-analysis of the deposited data

How the results depend on the processing

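No label says whether the replicate numbers pair the libraries. Same-numbered libraries had correlations of 0.269, 0.003 and 0.1 between their deviations from the group means. Knockdown replicate 1 correlated best with NC replicate 1 and knockdown replicate 3 with NC replicate 2 (0.186). Deviations centred within 3 libraries cannot show whether a batch was shared. With the replicate number as a block, 6 of the 10 genes fell, as without it, and Prkcz was called for exon usage (1 gene, edgeR adjusted p 0.00569). Over all genes 1331 rose and 1196 fell in that fit. Over the 10 genes, 115 of 140 alternative values kept their direction and side of the threshold, 22 lost the threshold and 3 reversed: Scrib at 0.13 with the most counted block, Pard3 without knockdown replicate 3 (−0.52 to 0.01 with 1 library left out) and Scrib without NC replicate 1 (−0.84 to 0.07). With the most counted block Prkcz (−0.66, edgeR adjusted p 0.175) and Llgl1 (−1.19, 0.0521) were not called and the share of Llgl1 reversed to 0.1 points. The most counted blocks of Llgl1 and Ezr are those shared with Flii and Sytl3. The sum of all exon lines gave Pard6b an edgeR adjusted p of 0.0668. Over all genes, 1829 rose and 1490 fell by DESeq2's Wald test, 2089 rose and 1518 fell with no filter on low counts (which moved the median of all genes to 0.17), against 1174 and 869. With 1 library left out 550 to 1224 rose, 336 to 1130 fell, 2 to 5 of the 10 genes fell, and 0 to 1 were called for exon usage. The cause was not tested. Levels of a few CPM limit Scrib, Llgl1 and the knockdown values of Msn and Ezr.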
